A study of Mus musculus with 12 samples.

Results

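The unfolded protein response (UPR) and the folding machinery of the endoplasmic reticulum (ER) were followed through 33 genes in splenic B cells of mice. The genes were taken by name: scanner rows for gene probes were matched to each symbol or its older form (Ero1l and Ero1lb for Ero1a and Ero1b), and the probe with the highest mean signal stood for the gene. By role they were 9 chaperones and cofactors, 8 genes of disulfide formation and lectin folding, 8 genes of ER-associated degradation, 4 stress sensors and 4 effectors of the PERK arm. Of the 33 genes, 32 passed the filter on dim signals and were tested among 24963 genes. Eif2ak3, which encodes the sensor PERK, was not well above background on any of the 12 arrays and was not tested.

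The series title concerns a CD9+ regulatory B cell subset in house dust mite (HDM) allergic airway inflammation. Each of 4 groups had 3 arrays: IL-10+ cells of HDM-allergic mice, IL-10+ cells of control mice, IL-10- cells of HDM-allergic mice and IL-10- cells of control mice. All mice were female Balb/c. All B cells, those of the controls included, were purified from spleen, activated with a CD40 agonist over 2 days and given LPS in the last 5 hours, and were then divided by flow cytometry on an IL-10 secretion assay, so no group was unstimulated. The sort marks cells that secreted IL-10 in culture. The labels give neither the ages nor how many mice stand behind an array, so the p-values measure the spread between samples, which may be technical.

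The ER folds secreted and membrane proteins, and an excess of unfolded chains is read by membrane sensors. IRE1 (Ern1) splices the Xbp1 transcript, PERK (Eif2ak3) phosphorylates eIF2-alpha and thereby raises translation of ATF4, and ATF6 is cleaved in the Golgi to a transcription factor. Their targets are chaperones, oxidoreductases and the degradation machinery. B cells that turn into plasma cells enlarge the ER, and XBP1 is required for this. The joining chain gene Jchain, raised in the IL-10+ cells here, is a marker of that path, so the UPR genes were set beside the plasmablast markers.

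Many UPR genes carry the ER stress response element (ERSE) before their start sites, which ATF6 and XBP1 bind together with NF-Y. RefSeq windows on GRCm38.p6, from 250 bases before to 50 bases after the start, were held for 29 of the 33 genes; Hyou1, Manf, Derl1 and Atf6 had no entry. The ERSE letters, CCAAT, then 9 bases of any kind, then CCACG, searched on both strands, stood in the windows of 8 genes (27.6%), against 0.119% of 32851 windows in the table. The 8 genes were Hspa5, Hsp90b1, Pdia6, Calr, Canx, Dnajc3, Ero1lb and Syvn1. The shorter ERSE-II, ATTGG, then 1 base of any kind, then CCACG, stood in 2 genes, Herpud1 and Dnajb11, against 0.037% of windows. The amino acid response letters TTGCATCA, bound by ATF4 with C/EBP proteins, were found in Herpud1 only, against 0.895% of windows. The letters TGACGTGG, an XBP1 site, were in none of the 29, against 0.676% of windows. No gene had both ERSE and ERSE-II letters. A match is a description of letters, not of binding, and a missing match says only that these letters are not in this window.

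The 250 bases before the start of 6 genes are given 5′ to 3′ on the gene's strand, with matches in capitals. Hspa5 (chr2:34771840-34772089, plus strand) has the element from position -65 to -47 relative to the start. Hsp90b1 (chr10:86705445-86705694, minus strand) has 2 copies in opposite orientation. Pdia6 (chr12:17266339-17266588, plus strand) had one of the lower values in IL-10+ cells, and Herpud1 (chr8:94386179-94386428, plus strand) has both ERSE-II and the amino acid response letters. Dnajb9 (chr12:44210069-44210318, minus strand) and Ern1 (chr11:106487797-106488046, minus strand) had the smallest p-values between IL-10+ and IL-10- cells, and neither window holds any of these letters.
Hspa5: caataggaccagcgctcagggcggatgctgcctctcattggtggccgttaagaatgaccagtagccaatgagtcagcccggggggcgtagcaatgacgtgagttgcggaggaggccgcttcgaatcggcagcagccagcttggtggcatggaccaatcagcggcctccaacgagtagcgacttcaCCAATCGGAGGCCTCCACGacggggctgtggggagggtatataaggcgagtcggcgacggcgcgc
Hsp90b1: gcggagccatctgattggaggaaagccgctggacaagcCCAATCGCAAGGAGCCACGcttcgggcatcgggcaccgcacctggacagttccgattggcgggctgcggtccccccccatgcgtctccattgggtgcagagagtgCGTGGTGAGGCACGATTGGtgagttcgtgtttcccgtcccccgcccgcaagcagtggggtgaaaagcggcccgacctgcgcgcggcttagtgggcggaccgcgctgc
Pdia6: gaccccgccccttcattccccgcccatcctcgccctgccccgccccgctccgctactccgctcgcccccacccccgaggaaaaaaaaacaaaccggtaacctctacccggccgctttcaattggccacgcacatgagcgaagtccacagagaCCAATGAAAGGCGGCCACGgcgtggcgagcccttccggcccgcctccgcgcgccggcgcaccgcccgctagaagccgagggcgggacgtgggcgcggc
Herpud1: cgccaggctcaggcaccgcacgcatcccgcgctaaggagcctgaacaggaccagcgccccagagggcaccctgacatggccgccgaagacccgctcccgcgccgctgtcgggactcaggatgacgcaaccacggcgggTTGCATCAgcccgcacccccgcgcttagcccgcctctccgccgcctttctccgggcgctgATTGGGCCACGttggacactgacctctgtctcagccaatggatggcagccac
Dnajb9: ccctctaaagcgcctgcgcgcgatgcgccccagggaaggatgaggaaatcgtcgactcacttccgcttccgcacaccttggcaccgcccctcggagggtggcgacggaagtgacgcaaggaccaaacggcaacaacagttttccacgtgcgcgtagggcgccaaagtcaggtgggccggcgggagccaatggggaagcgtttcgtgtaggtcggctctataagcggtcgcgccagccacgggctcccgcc
Ern1: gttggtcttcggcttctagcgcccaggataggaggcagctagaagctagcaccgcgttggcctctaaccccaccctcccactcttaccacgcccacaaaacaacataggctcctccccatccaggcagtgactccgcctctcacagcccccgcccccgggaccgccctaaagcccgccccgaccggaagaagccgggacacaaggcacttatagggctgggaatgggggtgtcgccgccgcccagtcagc

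Between 47.7% and 62.4% of spots per array were well above background, and no spot was saturated. IL-10- HDM array 3 stood apart, correlating over genes with the remaining arrays at 0.775 on average; the same mean was 0.867 to 0.901 for every other array. It had 73.0% of tested genes well above background, and IL-10+ control array 2 had 78.6%. The ratio of the 75th percentile to the median signal was 15.8 and 12.1 on these arrays. Of the 32 genes, 13 had their highest value of all arrays on IL-10- HDM array 3 and 8 their lowest, and 7 were highest on IL-10+ control array 2. As a check of the labels, Il10 was higher by 7.59 on the log2 scale in IL-10+ cells (limma, adjusted p = 0.0080). The size rests in part on IL-10- HDM array 3, where Il10 was at -5.43 and not well above background. On the other IL-10- arrays Il10 was at -0.09 to 1.12. Of 7 B cell markers, 6 were well above background on all 12 arrays, the exception being Cd79a on IL-10- HDM array 3. Of the 6 monocyte and macrophage markers, Itgam (8.51 to 8.96), Csf1r (2.38 to 4.04) and Cd68 were well above background on all 12 arrays, Cd14 and Emr1 on 9 and Lyz2 on 5. Of 4 tested dendritic cell markers, Siglech (5.76 to 6.54) and Flt3 were so on all 12, Zbtb46 on 11 and Xcr1 on 8. Of 5 tested T cell markers 4 were so on all 12 arrays, as were all 3 tested NK cell markers. The summed signal of the monocyte and macrophage markers, in units of the array's 75th percentile and mostly that of Itgam, was 436 to 448 in IL-10+ HDM, 381 to 510 in IL-10+ control, 372 to 502 in IL-10- HDM and 380 to 423 in IL-10- control cells. Emr1 differed from the sum: it was at -0.68, -1.44 and -0.97 in IL-10+ HDM and -1.22, -0.16 and -0.34 in IL-10+ control cells, against -4.71, -4.46 and -6.10 in IL-10- HDM and 0.12, -2.28 and -2.02 in IL-10- control cells, and was well above background on none of the IL-10- HDM arrays. Whether cells of these other types were present, and what part they had in the results, was not tested.

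Each level is the log2 processed signal with the 75th percentile of its array subtracted on that scale. They can be compared between arrays for a gene, not between genes. Differences are log2 fold changes with standard errors (SE) from limma, and a gene is called where the Benjamini-Hochberg adjusted p over all 24963 genes is under 0.05.

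The first question was whether IL-10+ cells differed from IL-10- cells in UPR and folding transcripts, over both kinds of mice. Among the 32 genes, 1 was called, Dnajb9, which was lower in IL-10+ cells. None was called higher. Of all genes, 0.268% were called, 0.244% higher and 0.024% lower. At an unadjusted p under 0.05, 2 of the 32 were higher (Ern1 and Herpud1) and 3 were lower (Dnajb9, Edem3 and Pdia6), against 5.59% and 3.57% of all genes (9.17% in both directions). The median log2 fold change of the 32 was -0.04, with 15 above 0 and 17 below, beside a median of 0.04 over all genes with 52.7% above 0. RNA was taken from many cells at once, so fewer cells with a transcript and less of it per cell cannot be told apart.

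**Figure D1:**
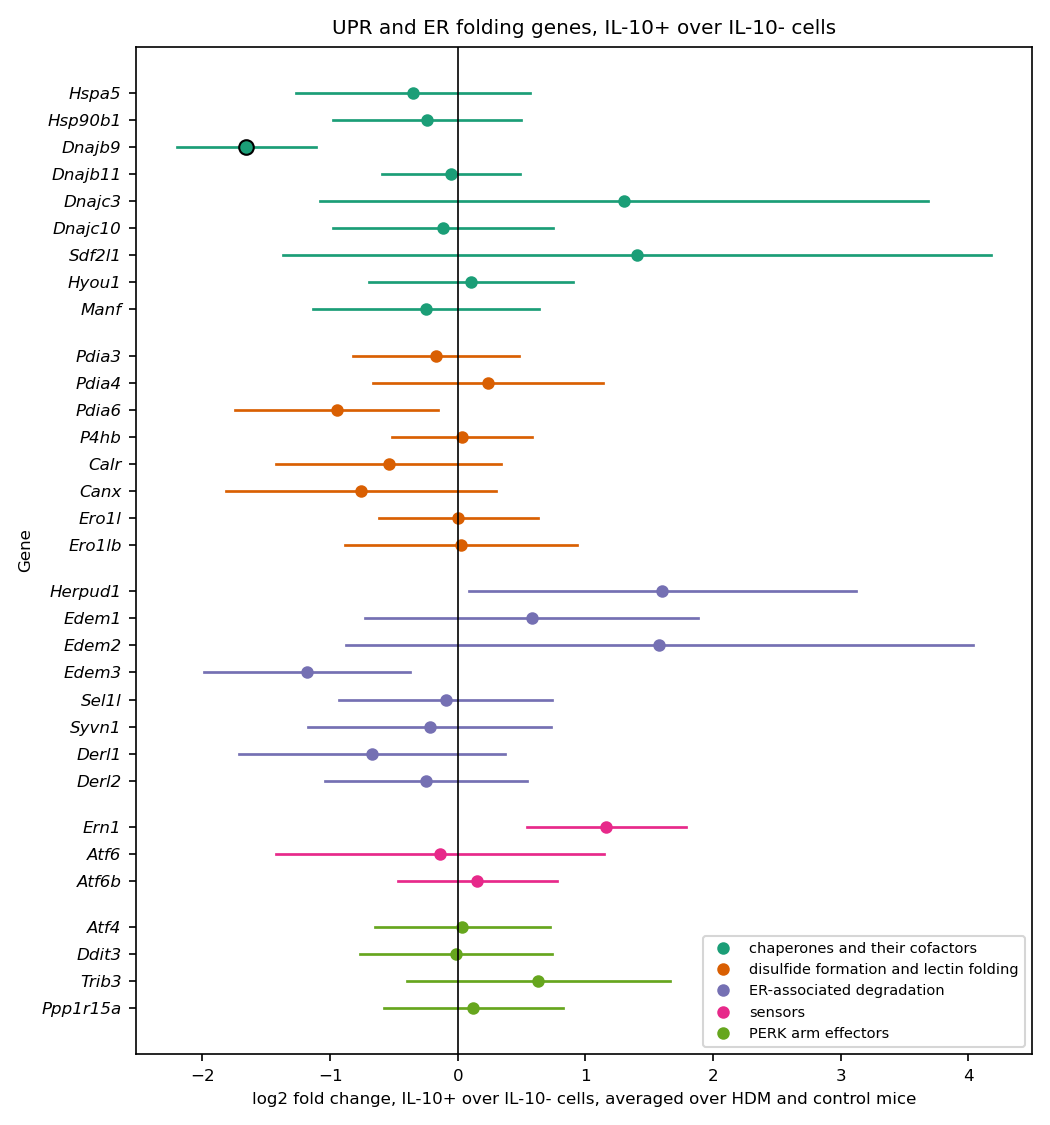
Log2 fold change of each of the 32 tested genes, IL-10+ over IL-10- cells averaged over HDM and control mice (6 arrays a side), by role. Points are limma estimates, lines their 95% intervals, and the black rim marks the only called gene, Dnajb9 at -1.66. Most intervals include 0, and the widest belong to Sdf2l1, Edem2 and Dnajc3.

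Dnajb9 encodes ERdj4, an ER cochaperone of BiP that is known to restrain IRE1 and is a target of XBP1. Its probe lies at mm9 chromosome 12, 45307313 to 45307372. Its level was 2.49, 1.86 and 2.23 in IL-10+ HDM and 1.88, 1.98 and 2.07 in IL-10+ control cells, against 3.95, 3.76 and 3.74 in IL-10- HDM and 3.46, 4.32 and 3.21 in IL-10- control cells. All 6 IL-10+ arrays were below all 6 IL-10- arrays, which held for 0.236% of all genes in that direction and 0.701% in the other, where no UPR gene was found. The signal in IL-10+ cells was 3.15-fold lower, a log2 difference of -1.66 (SE 0.24) with a limma adjusted p of 0.026. It stood at -1.62 in HDM mice and -1.69 in control mice. A second, dimmer Dnajb9 probe gave -0.89 (SE 0.33), with -0.81 in HDM mice and -0.97 in control mice. The call rests on a narrow margin: it was lost in 8 of the 12 fits that left out 1 array, with adjusted p up to 0.088 and log2 fold changes from -1.77 to -1.49, and was kept without IL-10- control array 2 or 3 or IL-10- HDM array 1 or 2. With slide as a block the difference was -2.11 (adjusted p = 0.22), and within slide 1, in control mice, it was -1.91. The slide term of the block fit rests on IL-10- control array 3, the only array of its group on slide 2.

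The other chaperones were not called, and over the 9 chaperones and cofactors 3 were above 0, with a median of -0.12. Hspa5, which encodes BiP, the main ER chaperone and the usual readout of the response (mm9 chromosome 2, 34631913 to 34631972), was at 2.87, 2.76 and 3.07 in IL-10+ HDM and 2.67, 4.06 and 2.81 in IL-10+ control cells, against 3.60, 2.84 and 4.72 in IL-10- HDM and 2.99, 3.88 and 2.32 in IL-10- control cells. The groups overlapped, and IL-10+ control array 2 and IL-10- HDM array 3 were the highest. The log2 fold change was -0.35 (SE 0.41), with a 95% interval from -1.27 to 0.56. Hsp90b1, the ER member of the HSP90 family, was at -0.24 and Dnajb11, a BiP cochaperone, at -0.05. Hyou1, a nucleotide exchange factor of BiP, was at 0.11. Manf, a secreted ER-resident neurotrophic factor, was at -0.25 and Dnajc10, an ER disulfide reductase, at -0.12. A second, dimmer Dnajc10 probe, well above background on all 12 arrays, gave 0.45 (SE 0.23). In HDM mice this probe gave 0.87 (SE 0.32), against -0.16 with the probe used. Dnajc3, the cochaperone p58IPK, was at 1.304 (SE 1.07), resting on -6.18 on IL-10- HDM array 3, where it was not well above background. Without that array Dnajc3 was at 0.23. Sdf2l1, a partner of BiP and ERdj proteins, was at 1.41 (SE 1.25) and was well above background on 4 of 6 IL-10+ and 3 of 6 IL-10- arrays.

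Of the 8 oxidoreductases and lectin chaperones none was called, 4 were above 0, and the median was -0.08. Pdia6, a protein disulfide isomerase that also binds IRE1 (mm9 chromosome 12, 17291070 to 17291129), was at 0.48, 0.04 and 0.22 in IL-10+ HDM and -0.31, 0.97 and 0.39 in IL-10+ control cells, against 1.00, 1.60 and 2.83 in IL-10- HDM and 0.30, 1.12 and 0.62 in IL-10- control cells. The groups separated in HDM mice and overlapped in control mice, and the averaged value was -0.95 (SE 0.36, adjusted p = 0.45). Canx, the membrane lectin calnexin, was at 1.54, 1.19 and 1.89 in IL-10+ HDM and 1.42, 1.83 and 1.59 in IL-10+ control cells, against 1.92, 2.36 and 4.87 in IL-10- HDM and 1.39, 2.21 and 1.24 in IL-10- control cells. The averaged difference was -0.76 (SE 0.47), with IL-10- HDM array 3 far above the rest. Its soluble relative Calr was at -0.54. Pdia3, which works with both lectins, was at -0.17. Pdia4 was at 0.24 and P4hb, the founding protein disulfide isomerase, at 0.03. The oxidases that recharge these enzymes, Ero1l and Ero1lb, were at 0.00 and 0.03. Pdia6 had 2 other, dimmer probes, at 1.28 (SE 1.26) and -1.05 (SE 1.10).

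Of the 8 ER-associated degradation genes none was called, 3 were above 0, and the median was -0.16. Edem3, a mannose-trimming enzyme that marks glycoproteins for disposal, was at -0.70, -1.29 and -0.91 in IL-10+ HDM and -1.23, -1.03 and -0.37 in IL-10+ control cells, against -0.26, 0.16 and 1.67 in IL-10- HDM and 0.34, -0.56 and 0.20 in IL-10- control cells. A single IL-10+ array, control 3, lay within the IL-10- range, and the averaged value was -1.18 (SE 0.36, adjusted p = 0.32). Herpud1, a scaffold of the degradation complex, was at 0.10, 1.00 and -0.43 in IL-10+ HDM and -0.39, 1.07 and 0.12 in IL-10+ control cells, against -0.17, -1.07 and -4.47 in IL-10- HDM and -0.72, -0.25 and -1.46 in IL-10- control cells. Its averaged value was 1.60 (SE 0.68, adjusted p = 0.53). On IL-10- HDM array 3 it was not well above background, and without that array the value was 0.96 (SE 0.40).

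Edem2 was at 1.88, 2.52 and 1.09 in IL-10+ HDM and 1.89, 2.71 and 2.08 in IL-10+ control cells, against 1.17, 1.53 and -5.84 in IL-10- HDM and 1.71, 2.29 and 1.81 in IL-10- control cells. The last of the IL-10- HDM values was not well above background: the averaged value was 1.58 (SE 1.10) with that array and 0.38 without it. Derl1, a channel component of retrotranslocation, was at 1.05, 1.10 and -0.05 in IL-10+ HDM and 0.94, 2.16 and 0.86 in IL-10+ control cells, against 1.05, 2.32 and 3.80 in IL-10- HDM and 0.98, 1.08 and 0.85 in IL-10- control cells. Averaged, Derl1 was at -0.67 (SE 0.47), and a second probe of nearly the same brightness gave 0.21 (SE 0.33), so the probes disagreed in sign. Derl2 was at -0.25, Edem1 at 0.58, the adaptor Sel1l at -0.09 and its ubiquitin ligase partner Syvn1 (HRD1) at -0.22.

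None of the 3 tested sensors was called. Ern1, which encodes IRE1 (mm9 chromosome 11, 106258948 to 106259007), was at 2.33, 2.91 and 2.51 in IL-10+ HDM and 2.36, 1.75 and 1.86 in IL-10+ control cells, against 0.20, 1.495 and 0.49 in IL-10- HDM and 1.58, 1.15 and 1.80 in IL-10- control cells. The groups separated in HDM mice, and in control mice 1 IL-10- array lay within the IL-10+ range. The averaged value was 1.17 (SE 0.28, adjusted p = 0.17). The gene's 3 other probes, with lower signals, gave -0.16 (SE 0.56), -0.16 (SE 1.05) and 0.09 (SE 0.59). With the mean of the eligible probes in place of the brightest, the averaged value was 0.28 (adjusted p = 0.86). The difference was thus seen only with the brightest probe of Ern1. The 3 other probes were well above background on 9, 8 and 2 arrays, in the order given. Their dim signals and large SE cannot settle whether the difference is specific to 1 probe, which was not tested.

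Atf6 was at 1.32, 1.15 and 1.77 in IL-10+ HDM and 1.81, 3.84 and 2.08 in IL-10+ control cells, against 2.27, 0.25 and 3.71 in IL-10- HDM and 1.67, 2.79 and 2.11 in IL-10- control cells. Its averaged value was -0.14, with a wide 95% interval from -1.43 to 1.15. Its paralogue Atf6b was at 3.67, 3.58 and 3.39 in IL-10+ HDM and 3.71, 3.31 and 3.93 in IL-10+ control cells, against 3.29, 3.86 and 2.30 in IL-10- HDM and 3.71, 3.85 and 3.64 in IL-10- control cells. The groups overlapped, and the averaged value was 0.15.

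None of the 4 effectors of the PERK arm was called, 3 were above 0, and the median was 0.08. Atf4, the factor whose translation PERK raises, was at 1.86, 1.34 and 2.04 in IL-10+ HDM and 1.57, 1.88 and 1.92 in IL-10+ control cells, against 2.30, 0.57 and 1.495 in IL-10- HDM and 1.74, 1.96 and 2.31 in IL-10- control cells. Its averaged value was 0.04, with a 95% interval from -0.65 to 0.72, and a second probe gave -0.75 (SE 0.49). ATF4 is governed mainly by translation, which arrays do not measure. Ddit3, which encodes CHOP, the factor linked to death under prolonged stress, was at 3.52, 3.70 and 3.1045 in IL-10+ HDM and 2.44, 3.39 and 3.02 in IL-10+ control cells, against 4.15, 3.36 and 2.54 in IL-10- HDM and 2.73, 3.74 and 2.77 in IL-10- control cells. Its averaged value was -0.02, with a 95% interval from -0.77 to 0.74. The pseudokinase Trib3 was at 0.63 and Ppp1r15a, the phosphatase subunit GADD34 that reverses the action of PERK, at 0.12.

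**Figure D2:**
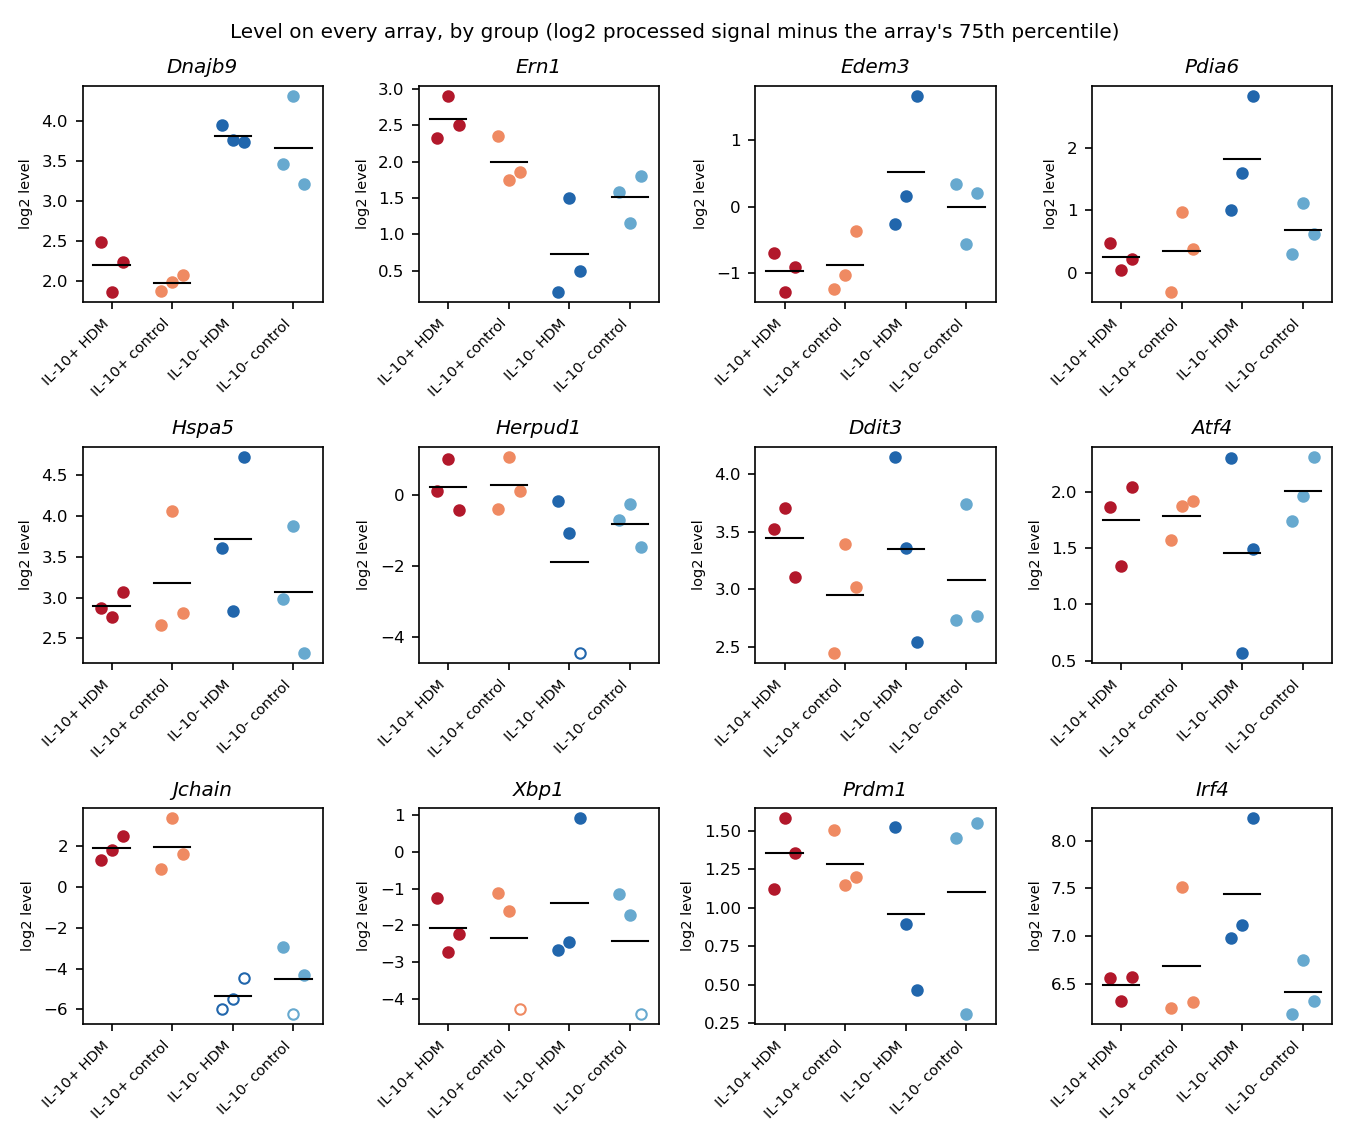
Level of 12 genes on every array, by group, as log2 signal relative to the 75th percentile of the array. Filled points were well above background, open points were not, and bars are group means. Dnajb9 and Jchain separate the IL-10+ from the IL-10- arrays in both kinds of mice, most of the IL-10- values of Jchain being open points. Ern1 (higher in IL-10+) and Edem3, Pdia6 and Irf4 (lower) separate in HDM mice only, while Xbp1, Prdm1, Hspa5, Herpud1, Ddit3 and Atf4 overlap in HDM mice.

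The question of the sort was next asked in each kind of mouse. In control mice limma called none of the 32 genes, against 0.016% of all genes. At an unadjusted p under 0.05 only Dnajb9 passed (lower, 3.12% of the 32, against 1.81% of all genes lower, 2.25% higher and 4.06% in both directions), and it was also the only one whose groups did not overlap, in a direction that 4.7% of all genes shared. The median of the 32 was 0.20 with 20 above 0, against -0.04 over all genes with 46.8% above 0. After Dnajb9 (-1.69, SE 0.35, adjusted p = 0.31), the smallest p belonged to Edem3 at -0.87 (SE 0.51) and Pdia4 at 0.82 (SE 0.57). Pdia4 was at 2.89, 4.25 and 2.98 in IL-10+ control cells, against 2.11, 3.28 and 2.28 in IL-10- control cells. There 1 IL-10- array lay within the IL-10+ range. In HDM mice Pdia4 was at 3.099, 3.00 and 3.01 in IL-10+ cells, against 3.85, 2.19 and 4.10 in IL-10- cells. Without IL-10+ control array 2 the median of the 32 was -0.06, so its sign rests on that array.

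In HDM mice limma again called none of the 32, against 0.168% of all genes. At an unadjusted p under 0.05, 1 was higher (Ern1) and 5 were lower (Dnajb9, Pdia6, Edem3, Derl1 and Canx), against 7.72% and 5.58% of all genes. Derl1 was at -1.69, but its second probe, of nearly the same brightness, gave -0.06 (SE 0.47) in HDM mice. The median of the 32 was -0.27 with 12 above 0, against 0.16 over all genes with 56.9% above 0. The groups did not overlap for 10 genes that were lower in IL-10+ HDM cells (31.2%, against 11.2% of all genes): Hsp90b1, Dnajb9, Dnajb11, Manf, Pdia3, Pdia6, Calr, Canx, Edem3 and Sel1l. They did not overlap for 2 that were higher, Ern1 and Trib3, against 11.4% of all genes. Ern1 was at 1.85 (SE 0.40), Dnajb9 at -1.62 (SE 0.35) and Pdia6 at -1.57 (SE 0.51), with adjusted p of 0.13, 0.13 and 0.28. Ern1 was called (2.23, adjusted p = 0.044) where IL-10- HDM array 2 was left out, and by no other omission of 1 array.

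The HDM result moved with the scaling of the arrays. The 75th percentile over the median signal was 5.69 to 7.75 on the IL-10+ HDM arrays and 10.02 to 15.8 on the IL-10- HDM arrays, without overlap, and all IL-10+ HDM arrays lay on slide 1 and all IL-10- HDM arrays on slide 2, so sort and slide cannot be told apart there. After quantile normalization the median of the 32 was 0.055, and the lower genes without overlap numbered 4 (12.5%, against 11.5% of all genes): Dnajb9, Pdia6, Edem3 and Sel1l. After scaling to the array median the median was -1.06, against -0.64 over all genes, and the lower genes without overlap numbered 16 of 32, against 29.4% of all genes. Without IL-10+ control array 2 and IL-10- HDM array 3 they numbered 11 (34.4%, against 16.2%).

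**Figure D3:**
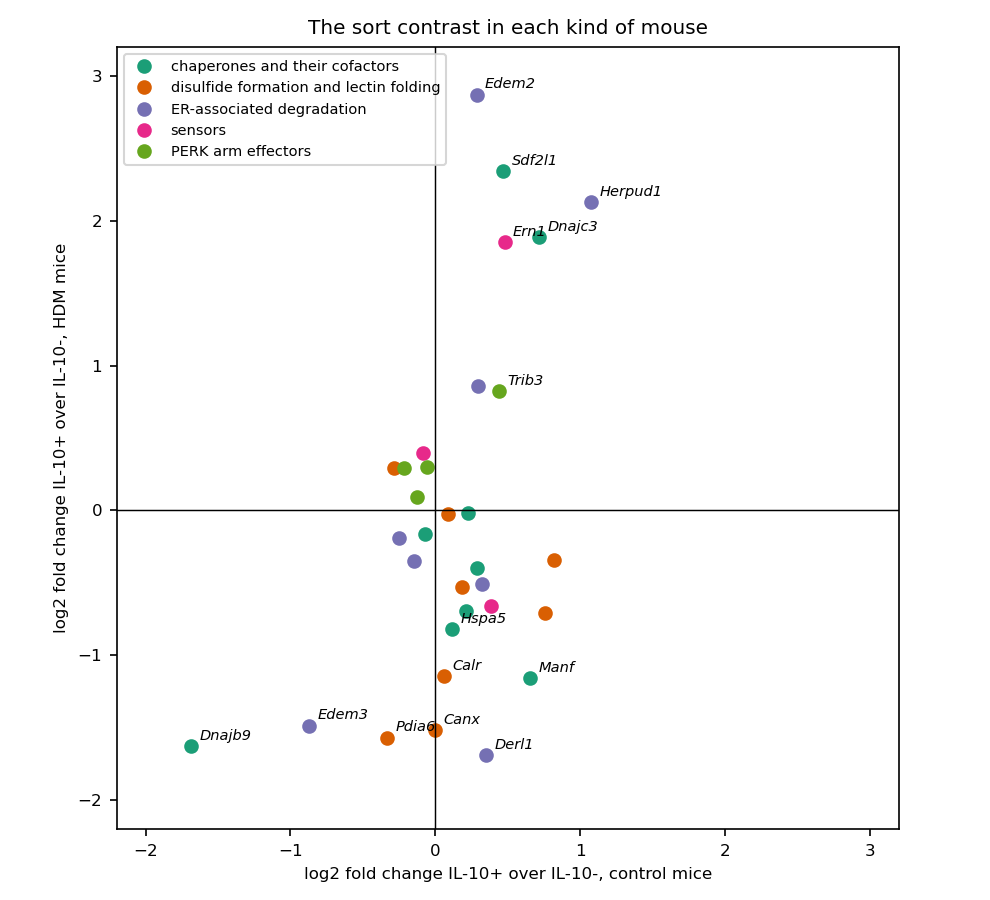
Log2 fold change of each of the 32 genes, IL-10+ over IL-10- cells, in HDM mice (vertical axis) and in control mice (horizontal axis), coloured by role, both from 3 arrays a side. Dnajb9 lies near -1.62 and -1.69 on the axes, while Canx, Derl1, Manf and Calr lie far below 0 in HDM mice and near or above 0 in control mice. A second Derl1 probe, not drawn, gave -0.06 in HDM mice.

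The 2 sort contrasts rest on different arrays. Of the 32 genes, 7 were below 0 in both, 7 above 0 in both, 13 below 0 in HDM and above 0 in control mice, and 5 the reverse. The interaction, which tests this difference, called none of the 32, against 0.012% of all genes. At an unadjusted p under 0.05, 1 was above 0 (Ern1 at 1.37, SE 0.56) and 1 below (Manf at -1.81, SE 0.79), against 4.49% and 1.97% of all genes (6.46% in both directions). Derl1 followed at -2.04 (SE 0.93), while its second probe gave -0.54 (SE 0.67). All 3 genes had an adjusted p of 0.76 with the probe used. For Dnajb9 the interaction was 0.06, with a 95% interval from -1.03 to 1.15.

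The effect of HDM allergy was then examined within each sorted population. In IL-10+ cells limma called none of the 32, against 0.00401% of all genes, and none had an unadjusted p under 0.05, against 2.28% of all genes (1.63% higher). The median was -0.12 with 8 of 32 above 0, beside 0.07 over all genes with 56.3% above 0. Without IL-10+ control array 2 the median was 0.11 with 20 of 32 above 0, so its sign rests on that array. P4hb was at 3.14, 3.48 and 3.54 in IL-10+ HDM cells, against 4.01, 4.31 and 3.86 in IL-10+ control cells, without overlap (-0.67, SE 0.35). In IL-10- cells it was at 3.72, 3.77 and 2.73 in HDM mice, against 3.899, 4.20 and 3.82 in control mice, again without overlap. Atf6, at -1.16, was the only other gene without overlap in that direction, which 3.75% of all genes showed. None of the 32 was higher without overlap, against 5.86% of all genes. Sdf2l1 was at -2.12, -0.09 and 0.31 in IL-10+ HDM cells, against -5.45, -4.93 and -0.16 in IL-10+ control cells, the lowest pair not well above background (2.88, SE 1.76). In IL-10- cells Sdf2l1 was at -1.25, -6.55 and -1.12 in HDM mice, against -1.99, -5.60 and -4.35 in control mice, so values near background occurred in each group but IL-10+ HDM. Dnajc10 was at 1.31, 2.26 and 0.84 in IL-10+ HDM cells, against 0.34, 0.57 and 0.90 in IL-10+ control cells (0.87, SE 0.55), and at 1.79, 0.56 and 2.55 in IL-10- HDM cells, against 1.14, 0.23 and 0.65 in IL-10- control cells. The second Dnajc10 probe gave 0.33 (SE 0.32) for HDM in IL-10+ cells. In IL-10- cells it gave -0.50 (SE 0.32), against 0.96 with the probe used, so the probes disagreed in sign there.

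In IL-10- cells limma called none of the 32 between HDM and control mice, against 0.0481% of all genes. At an unadjusted p under 0.05, 2 were higher in HDM mice, Manf and Pdia6, against 3.74% of all genes, and none was lower, against 5.39% (9.13% in both directions). The median was 0.21 with 18 above 0, against -0.04 over all genes with 47.9% above 0. After quantile normalization 1 was higher and 3 were lower, with a median of 0.04 against 0.02 over all genes. There 2321 of all 24963 genes had such a p in either direction. With median scaling 6 were higher and none lower, with a median of 0.86 against 0.60 over all genes. There 2990 of the 24963 genes had such a p, and 73.1% of all genes were above 0. Manf was at 3.87, 4.17 and 5.34 in IL-10- HDM cells, against 2.53, 3.69 and 2.18 in IL-10- control cells, without overlap (1.66, SE 0.56, adjusted p = 0.46). In IL-10+ cells it was at 3.00, 3.31 and 3.60 in HDM mice, against 2.72, 4.31 and 3.34 in control mice, where the groups overlapped. Pdia6 was at 1.14 (SE 0.51) and Canx at 1.44 (SE 0.67). Manf alone was higher without overlap, against 5.72% of all genes, and Edem2, Trib3 and P4hb were lower without overlap, against 6.16% of all genes. Within slide 2, which holds 1 IL-10- control array, Manf was at 2.28, Canx at 1.81 and Pdia6 at 1.198. This comparison shares its IL-10- HDM arrays with the sort contrast in HDM mice, and Canx was 0.53 and Pdia6 0.63 without IL-10- HDM array 3.

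**Figure D4:**
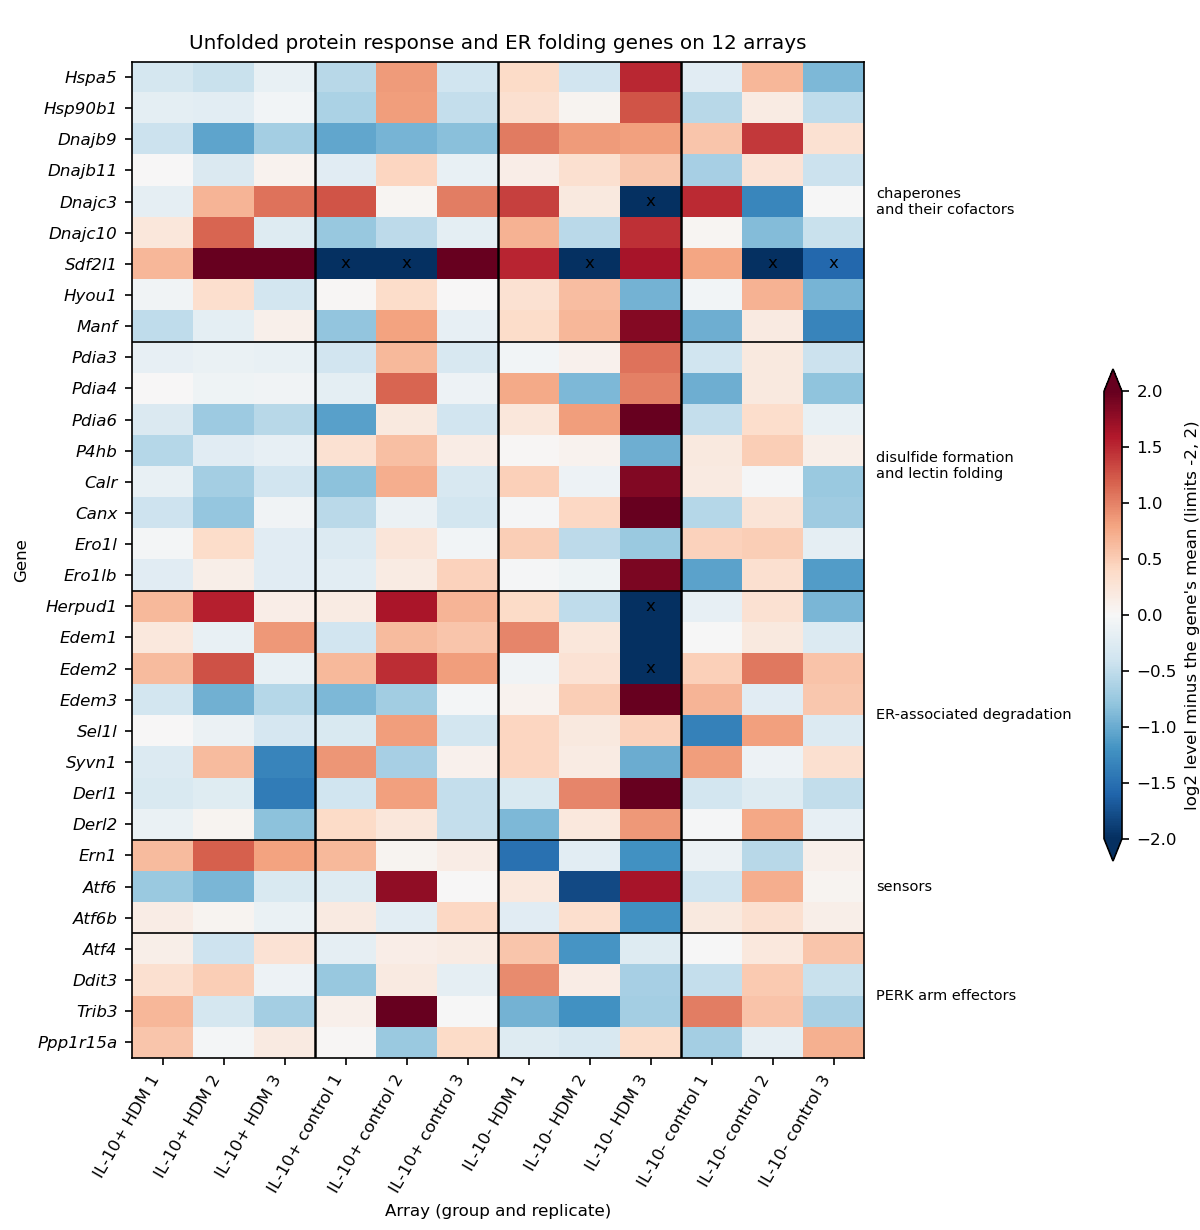
Level of the 32 tested genes on each of the 12 arrays, as log2 level minus the gene's mean over the arrays, with rows by role and columns by group. Crosses mark values not well above background. The column of IL-10- HDM array 3 holds the highest value of 13 genes and the lowest of 8, and Dnajb9 is below its mean on all 6 IL-10+ arrays.

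Genes with the ERSE letters could be set beside those without, since the letters were read from the genome and not from the arrays. The 8 tested genes with ERSE had a median averaged log2 fold change of -0.30, with 6 below 0, and a median of -0.76 in HDM and 0.09 in control mice. The 20 tested genes that have a window without it had medians of 0.03, 0.19 and 0.14, with 8 of 20 below 0 in the averaged comparison. Hspa5, Hsp90b1, Calr, Canx, Pdia6 and Syvn1 were the 6 below 0. The HDM values move with the scaling described above, and these medians carry no test.

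The UPR genes were set beside the markers of the plasmablast-like state. Of 18 plasmablast markers 16 were tested, and 2 were called higher in IL-10+ cells, with a median of 0.53 and 12 of 16 above 0. Of all genes 0.244% were called higher and 52.7% were above 0. These markers were chosen with earlier results of these arrays known, so their direction is no independent evidence. Jchain, whose product links the units of polymeric immunoglobulins, was at 1.33, 1.85 and 2.53 in IL-10+ HDM and 0.88, 3.41 and 1.61 in IL-10+ control cells, against -6.00, -5.52 and -4.45 in IL-10- HDM and -2.95, -6.24 and -4.30 in IL-10- control cells. No array overlapped, and the fitted log2 fold change was 6.84 (SE 0.62, adjusted p = 0.0045). Only IL-10- control arrays 1 and 3 of the 6 IL-10- arrays were well above background, so the size of the difference is not settled. With slide as a block, a fit whose slide term rests on IL-10- control array 3 alone, Jchain was at 7.04 (adjusted p = 0.20). The surface protein Ly6c1 was higher by a fitted 4.67 (adjusted p = 0.042). It was measured above background on only 2 of 6 IL-10- arrays, so its size is not settled either. Jchain and Ly6c1 thus passed the filter of at least 3 arrays only with IL-10+ arrays, where they were high. Their 2 calls are therefore no independent evidence. Tnfrsf13b, the receptor TACI, was at 0.94 and Ell2, an elongation factor of immunoglobulin secretion, at 1.26, each with an adjusted p of 0.37.

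The regulators that tie plasma cell formation to the UPR were not called. Xbp1 was measured by 1 dim probe at -1.25, -2.74 and -2.24 in IL-10+ HDM and -1.11, -1.61 and -4.30 in IL-10+ control cells, against -2.68, -2.46 and 0.93 in IL-10- HDM and -1.14, -1.73 and -4.43 in IL-10- control cells. Averaged, Xbp1 was at -0.29, with a 95% interval from -2.19 to 1.61, and the array does not tell the spliced from the unspliced transcript. Prdm1, which encodes the plasma cell regulator Blimp-1, was at 1.12, 1.58 and 1.35 in IL-10+ HDM and 1.51, 1.15 and 1.201 in IL-10+ control cells, against 1.52, 0.89 and 0.47 in IL-10- HDM and 1.45, 0.31 and 1.55 in IL-10- control cells (0.29, 95% interval -0.36 to 0.94). Irf4, which acts with it, was at 6.56, 6.32 and 6.57 in IL-10+ HDM and 6.25, 7.52 and 6.31 in IL-10+ control cells, against 6.99, 7.12 and 8.24 in IL-10- HDM and 6.18, 6.75 and 6.32 in IL-10- control cells (-0.34, 95% interval -1.05 to 0.36), lower without overlap in HDM mice and overlapping in control mice. Sdc1, the plasma cell surface marker syndecan-1, was well above background on 2 of 6 IL-10+ and 3 of 6 IL-10- arrays (-1.08, SE 1.36).

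Of 12 genes known to be lower in plasma cells than in B cells, none was called and 6 were above 0, with a median of 0.01. Bach2, a repressor of Prdm1, was at 2.90 (SE 0.97, adjusted p = 0.38), with 5.58 in HDM mice and 0.22 in control mice. Its level on IL-10- HDM array 3 was -5.29 and not well above background. Pax5 was at 0.39. Id3 was well above background on only 1 of 6 IL-10+ and 2 of 6 IL-10- arrays, so no difference is given. Array by array, the median of the plasmablast markers around their means was 0.37 to 0.52 in IL-10+ HDM and 0.23 to 0.61 in IL-10+ control cells, against -1.54 to -0.30 in IL-10- HDM and -0.61 to 0.21 in IL-10- control cells. The IL-10+ arrays were thus all above the IL-10- arrays, in control mice by a narrow margin (0.23 against 0.21). The markers were chosen with earlier results of these arrays known. They include Jchain and Ly6c1, which passed the filter only with IL-10+ arrays, so this separation is no independent evidence. For the 32 UPR and folding genes the median was -0.15 to -0.10 in IL-10+ HDM and -0.27 to 0.30 in IL-10+ control cells, against 0.12 to 0.68 in IL-10- HDM and -0.35 to 0.26 in IL-10- control cells. The 3 IL-10- HDM arrays were thus above the 3 IL-10+ HDM arrays, and the control arrays overlapped.

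**Figure D5:**
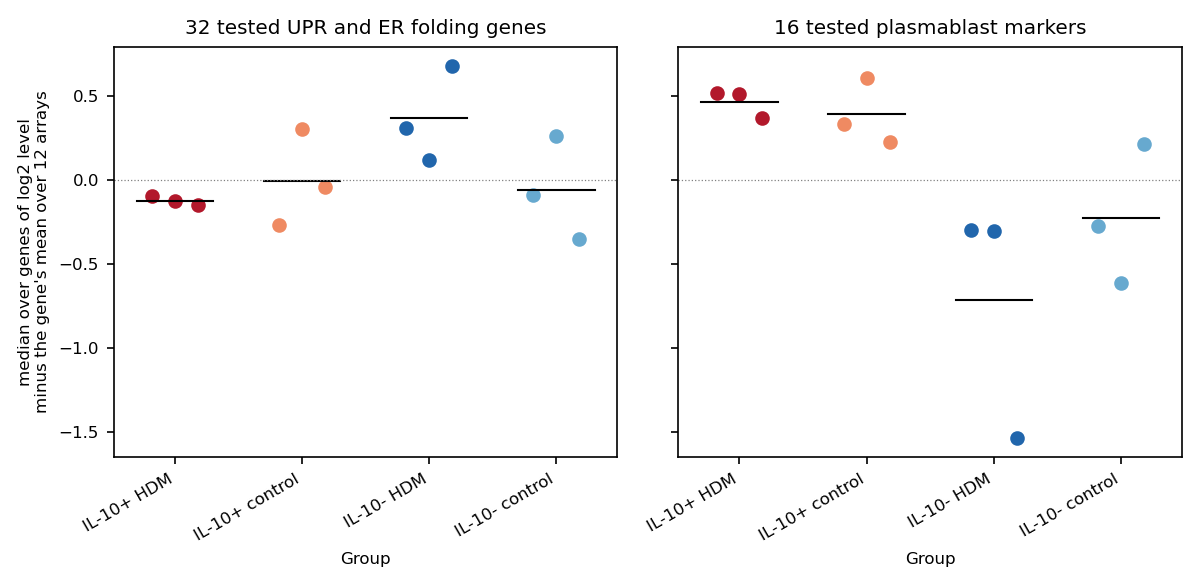
Median over genes of the log2 level minus the gene's mean, per array and group, for the 32 UPR and folding genes (left) and 16 plasmablast markers (right). Bars are group means of 3 arrays. All IL-10+ arrays exceed all IL-10- arrays for the plasmablast markers, by a narrow margin in control mice. These markers were chosen with earlier results of these arrays known, so this is no independent evidence. For the UPR genes the IL-10+ HDM arrays lie below the IL-10- HDM arrays while the control arrays overlap.

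Another 76 genes of the pathway were listed by arm. Of these 70 were tested, none was called by limma in the averaged comparison, 4 were higher and 1 lower at an unadjusted p under 0.05, against 5.59% and 3.57% of all genes, and the median was 0.06. Sesn2, an ATF4 target that restrains mTORC1, was at 0.56, 1.19 and 0.57 in IL-10+ HDM and -0.11, 0.84 and 0.61 in IL-10+ control cells, against -0.13, -1.94 and -1.38 in IL-10- HDM and -0.09, 0.45 and -0.74 in IL-10- control cells (1.25, SE 0.37, adjusted p = 0.29). Cth, of cysteine synthesis, was at 2.28 (SE 0.87), and Ppp1r15b, the constitutive partner of the eIF2-alpha phosphatase, at 0.51 (SE 0.21). The amino acid transporter Slc7a5 was the lower gene, at -0.76. Over the 25 tested genes of the ATF4 and integrated stress response, 16 were above 0, with a median of 0.25.

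Among 11 genes around Xbp1, 7 were below 0, with a median of -0.21. Wfs1, an ER membrane protein, was well above background on 3 of 6 IL-10+ and 0 of 6 IL-10- arrays. It thus entered the test only through the arrays where it was high, and no difference is given. Rtcb, the ligase that joins the Xbp1 exons after IRE1 has cut, was at -0.46, Mbtps2, a protease that releases ATF6, at 1.70, and Bak1 at -0.83. Of 19 other folding factors 12 were below 0, with a median of -0.09. They included Mzb1, a BiP partner of B cells and plasma cells, at 2.08 (SE 0.95), Txndc11 at 0.90, Mogs, the first glucosidase of N-glycans, at -0.81, and Nucb2 at 1.77. Of 15 other degradation genes 9 were above 0, with a median of 0.11. Rnf5 was at 0.73, the extraction ATPase Vcp at -0.55, Sels at -0.35 and the conjugating enzyme Ube2j1 at 0.81.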

How the data were processed

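RNA of each sample was amplified by PCR (SuperAmp), labelled with Cy3 and hybridised to 1 Agilent array, per the labels' protocols. The intensity values are the authors' deposited scanner output: background-subtracted processed signals from Feature Extraction 10.7.3.1, design 028005 with mm9 annotation, per the file headers, not normalized between arrays. Values in the deposited table equal the ratio of that signal to its array median, as found by matching them here. The deposited flags per spot gave well above background and outlier status.

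Here log2 signals were set relative to each array's 75th percentile. Probes well above background on at least 3 of 12 arrays were kept, 79 outlier-flagged probes were left out, and 1 probe per gene was used, which gave 24963 genes. Limma 3.58.1 in R 4.3.3 fitted 4 group means (8 residual degrees of freedom), and was tested on simulated data. Genes of the whole table entered the Benjamini-Hochberg adjustment. The number of arrays limits the precision.

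The genes, lists and tests were chosen with earlier results of these data known. Every tested gene of the 33 is named. Values per array are given for called genes, the 8 smallest p in the averaged comparison, the 3 smallest in each other comparison, and the sensors, Hspa5, Atf4 and Ddit3. Of other lists, Xbp1, Jchain, Prdm1, Irf4, Sdc1 and up to 4 genes with the smallest p are named, and any further gene was chosen after its values were seen. Alternatives were quantile normalization after normexp, the value table, median scaling, other filters and probe rules, slide and replicate blocks, and omission of arrays. The fit without 2 arrays that stood apart, and the counts of groups without overlap under other scalings, were added after seeing the data.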

Additional observations from a re-analysis of the deposited data

Results flagged for a closer look

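Txndc5, a protein disulfide isomerase of the ER outside the 33 genes, had opposite differences between HDM and control mice in the sorted populations. Its level was 1.84, 1.57 and 1.34 in IL-10+ HDM cells, against 1.95, 2.10 and 1.94 in IL-10+ control cells (-0.41), and 2.32, 1.78 and 2.72 in IL-10- HDM cells, against 1.70, 1.75 and 0.80 in IL-10- control cells (0.86). All 3 HDM arrays lay below their control arrays in IL-10+ cells, as for 3.75% of all genes. In IL-10- cells all 3 lay above, as for 5.72% of all genes, by a narrow margin (1.78 against 1.75). The difference of these differences was -1.27 (SE 0.52, limma adjusted p = 0.76), so it did not pass the correction over all genes. All IL-10- HDM arrays lay on slide 2, which holds 1 IL-10- control array, and a part of slide in the IL-10- difference was not tested.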

How the results depend on the processing

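The Dnajb9 difference kept its sign under all 21 alternatives (-2.11 to -1.27), but its call did not hold: the count of called genes among the 32 was 0 in the averaged comparison with the deposited value table, median scaling, the mean of probes, slide as a block, the replicate block (Dnajb9 adjusted p = 0.087) and without both arrays that stood apart, and 0 to 1 where 1 array was left out. The call was kept after quantile normalization (adjusted p = 0.012), with no filter on dim probes and with the filter on all 12 arrays. Value table and median scaling, which are the same fit, moved the median of the 32 to -0.37 averaged, -1.06 in HDM mice, -0.40 for HDM in IL-10+ cells, 0.86 for HDM in IL-10- cells and -1.09 for the interaction, while the medians over all genes were -0.29, -0.64, -0.21, 0.60 and -0.78. Slide as a block gave -0.29 averaged, -0.62 in HDM mice, 0.59 for HDM in IL-10- cells (also within slide 2) and -0.49 for the interaction. Quantile normalization gave 0.089 averaged and 0.055 in HDM mice. The filter on all 12 arrays gave -0.43 for the interaction. Without both arrays the control median was -0.06. Leaving out 1 array gave -0.14 to 0.07 averaged, -0.062 to 0.37 in control mice, -0.27 to 0.11 for HDM in IL-10+ cells, -0.42 to -0.018 for the interaction and 0 to 1 called genes in HDM mice. The Ern1 interaction reversed to -0.38 with the mean of all probes, whose averaging takes in dimmer probes. Genes called over the whole table numbered 67, against 88 with quantile normalization, 26 with median scaling, 30 with the filter on all 12 arrays, 98 with the mean of probes, 36 with the replicate block and 0 with the slide block. Whether replicate numbers pair the samples is not settled. Correlations over 18 pairs of arrays with the same number, pairs of HDM with control mice included, ran from -0.14 to 0.15. These correlations are a different measure from those between arrays given earlier (0.775 to 0.901 on average). Between IL-10+ and IL-10- cells of the same kind of mouse they were 0.11, 0.15 and 0.03 in control and 0.02, 0.03 and 0.07 in HDM mice. With different numbers these ran from -0.19 to 0.09. The replicate block also joins HDM to control mice, so a pairing within 1 kind of mouse was not tested. The share of genes above 0 was 52.7%, against 31.3% with median scaling. Of the 32 genes, 14 kept the sign of the averaged difference under all alternatives. For the causes of these shifts no test was made. Scan date divides the arrays as slide does and was not run. Dim signals limit Sdf2l1, Xbp1 and Eif2ak3.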
